A study of Schizosaccharomyces pombe with 21 samples.

Results

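Ergosterol, the main sterol of fungal membranes, is built from acetyl-CoA by a chain of enzymes, and the expression of 8 of these enzymes and of the factors Sre1 and Scp1 was followed in fission yeast deprived of phosphate. The 10 genes (hmg1, erg9, erg1, erg7, erg11, erg25, erg6, erg5, sre1 and scp1) were chosen by name from the 6988 gene identifiers of the deposited count tables. All 10 were found, and all 10 were among the 6234 genes that passed the filter on low counts.

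RNA carrying polyA tails was sequenced from log phase Schizosaccharomyces pombe in vegetative growth at 30 °C. The wild type (WT, mating type h-, strain Sp1) was sampled at 0 h in ePMGT medium with phosphate, and 1 h, 2 h and 4 h after transfer to the same medium with no phosphate. HASX, also h-, is 1 strain that carries asp1-H397A together with deletions of aps1, siw14 and spx1 (pqr1 in the annotation), and was sampled 1 h, 2 h and 4 h after the same transfer. Asp1 both makes and breaks down inositol pyrophosphates, small signals of the phosphate supply; the asp1 allele is mutated in the domain that breaks them down, and aps1 and siw14 encode further enzymes that do so. Each of the 7 groups held 3 libraries, which the labels call biological replicates. HASX with phosphate and a mock transfer were not analysed here, so a difference between HASX and WT without phosphate cannot be told apart from one that was there before the transfer.

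In this pathway acetyl-CoA is turned into mevalonate, farnesyl pyrophosphate, squalene, lanosterol and finally ergosterol, and several of the late steps consume oxygen. Sre1 is the fission yeast sterol regulatory element-binding protein (SREBP), a membrane-bound transcription factor whose partner Scp1 senses sterols. When sterols or oxygen run low, Sre1 is cut with the help of the Dsc ubiquitin ligase and the rhomboid protease Rbd2, and its soluble part enters the nucleus, activates sterol and low-oxygen genes and raises sre1 transcription. Messenger RNA levels do not show how much Sre1 is cut.

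Libraries held 11.2 M to 23.7 M counts. Group means of aps1, deleted in HASX, lay between 159 and 186 CPM (counts-per-million, scaled as described under the processing) in WT and between 3.34 and 8.43 CPM in HASX. One library stood apart. The library labelled HASX 4 h replicate 3 correlated with its 2 partners at r = 0.896 and 0.893 over log2 CPM of all tested genes, against 0.983 to 0.996 for all other replicate pairs, and siw14, also deleted in HASX, stood at 69.6 CPM in it, against 2.61 and 1.77 CPM in its partners and 241 to 257 CPM in WT at 4 h. For siw14 that library went against its label. Levels of aps1 and spx1 in that library alone are not given here, and whether it was mixed or mislabelled was not tested. Values of named genes that rest on it are given with and without it.

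Changes are log2 fold changes (log2 FC) ± standard error (SE) from edgeR's quasi-likelihood test over all 6234 genes, with Benjamini-Hochberg adjusted p, and rose, fell, higher and lower are used of changes with an adjusted p under 0.05. CPM are not corrected for gene length, so levels are compared within a gene only. In bulk RNA a lower level in every cell and a smaller share of cells expressing the gene cannot be told apart.

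**Figure D1:**
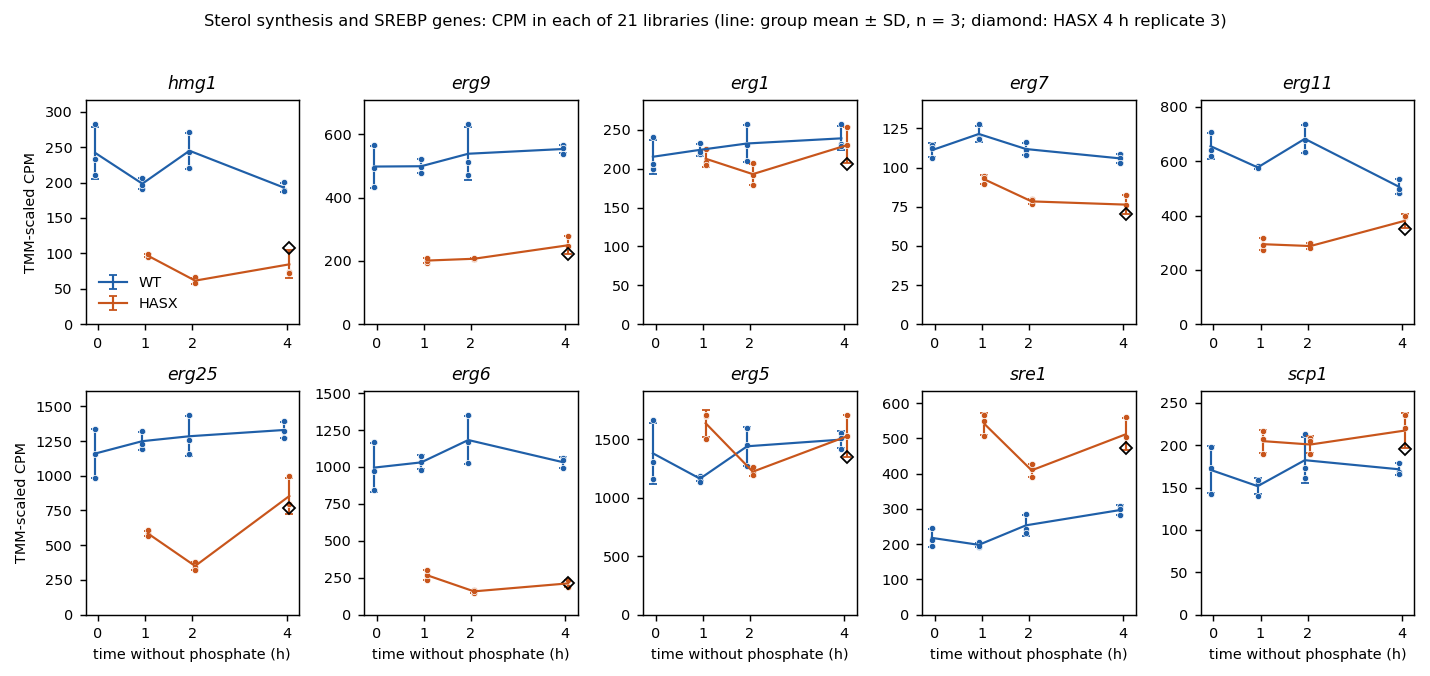
Level of each of the 10 genes (CPM, linear axis from 0) against hours without phosphate, 1 panel per gene, with WT in blue and HASX in orange. Points are libraries, lines join group means and bars are SD over 3 libraries; the diamond is the library labelled HASX 4 h replicate 3. The orange erg6 points lie far below the blue ones at every time, those of sre1 lie above, and those of erg1 lie near them.

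In the wild type few of the sterol genes changed on phosphate withdrawal. None of the 10 passed the test at 1 h or at 2 h, when 9.14% and 17.9% of all genes did. At an unadjusted p under 0.05 there was 1 gene at each time, hmg1 (log2 FC -0.29) at 1 h and sre1 (0.22) at 2 h, and DESeq2 called 0 of the 10 at both times. At 4 h 3 of 10 passed, against 51.3% of all genes, 1 of them higher (26.3% of all genes) and 2 lower (25.0%), and the median log2 FC over the 10 was 0.09 beside 0.01 over all genes tested. The gene that rose was sre1, by 0.45 ± 0.10 (adjusted p = 0.00106). The lanosterol 14-demethylase gene erg11 fell, with a log2 FC of -0.37 ± 0.09 (adjusted p = 0.00169), as did hmg1, at -0.33 ± 0.13 (adjusted p = 0.0371). For sre1 and erg11 the call was made in every fit that left out 1 library. The hmg1 call was lost when any 1 of 5 libraries was left out. Leaving out WT 0 h replicate 2 gave -0.35 (adjusted p = 0.0555) and leaving out WT 0 h replicate 3 gave -0.20 (adjusted p = 0.196), while leaving out WT 4 h replicates 1, 2 or 3 gave -0.31 (adjusted p = 0.0896), -0.36 (adjusted p = 0.0575) or -0.31 (adjusted p = 0.0935). Among the 0 h libraries replicate 1 was the lowest for all 10 genes and replicate 3 the highest for 9 of them.

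All libraries enter the scaling and the estimate of the spread, and counts of calls in WT also moved when a library of another group was left out. The cause was not tested. Without the library labelled HASX 4 h replicate 3, 3 genes were lower at 1 h than at 0 h: hmg1 at -0.34 (adjusted p = 0.00281), erg5 at -0.30 (adjusted p = 0.0329) and erg11 at -0.24 (adjusted p = 0.0221). The same 3 were called without HASX 4 h replicate 1, erg11 alone without HASX 1 h replicate 1, at -0.24 (adjusted p = 0.0419), and hmg1 alone without HASX 4 h replicate 2, at -0.34 (adjusted p = 0.0319). Calls among all genes rose too, from 570 of 6234 with all libraries to 1063 of 6252 without the library labelled HASX 4 h replicate 3. In the other 3 fits they were 821 of 6262, 710 of 6261 and 677 of 6255, in the order named. Levels in WT at 1 h and 0 h did not overlap for hmg1 or erg11, and for erg7 they did not overlap in the other direction (log2 FC 0.13, adjusted p = 0.379). The share of all genes without overlap was not counted. At 2 h sre1 and erg6 were higher than at 0 h without WT 0 h replicate 3, at 0.32 (adjusted p = 0.0236) and 0.38 (adjusted p = 0.0243), or without WT 2 h replicate 3, at 0.28 (adjusted p = 0.0474) and 0.34 (adjusted p = 0.0441). Of all genes, 2366 of 6263 and 2318 of 6263 were called at 2 h in these fits, against 1114 of 6234 with all libraries. At 4 h leaving out WT 0 h replicate 3 added erg25, at 0.31 (adjusted p = 0.0364), and erg5, at 0.27 (adjusted p = 0.0449). In that fit 3469 of 6263 genes in all were called at 4 h, against 3198 of 6234 with all libraries.

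Between the genotypes the pathway split. At 1 h, 2 h and 4 h, 9, 8 and 8 of the 10 genes differed, where 73.8%, 76.4% and 75.4% of all genes did, so the number of calls was near that of genes at large. By direction 3, 1 and 2 were higher in HASX (36.1%, 37.2% and 38.2% of all genes) and 6, 7 and 6 were lower (37.7%, 39.2% and 37.2% of all genes). Over the 8 enzymes the median log2 FC was -1.004, -1.31 and -0.56, beside -0.01, -0.01 and 0.05 over all genes tested. Counts at 1 h and 4 h were the same in all fits with 1 library left out, the library labelled HASX 4 h replicate 3 included. Genes are described below in the order of the pathway.

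**Figure D2:**
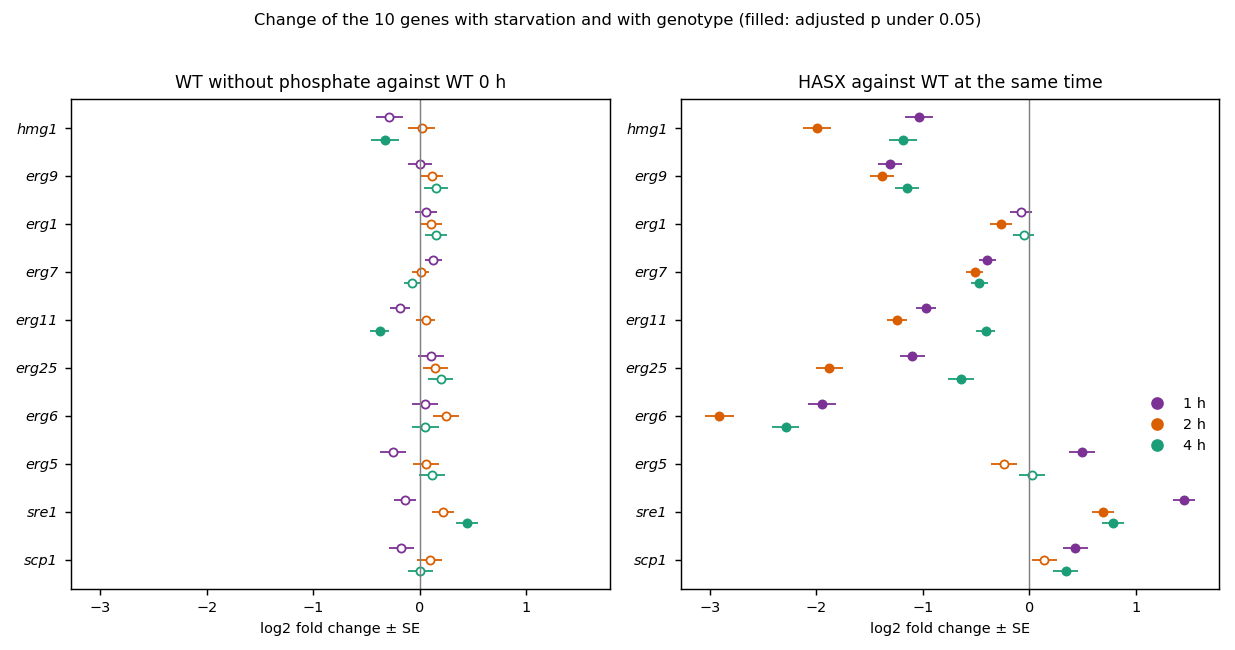
Log2 fold change of each gene (horizontal axis, bars are SE), with WT at 1 h, 2 h and 4 h against 0 h on the left and HASX against WT at the same time on the right; filled points have an adjusted p under 0.05. All points on the left sit between -0.37 and 0.45, while on the right erg6 reaches -2.91 at 2 h and sre1 1.45 at 1 h.

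The gene hmg1 encodes HMG-CoA reductase, the enzyme that makes mevalonate and a classic control point of sterol synthesis. Wild-type libraries held hmg1 at 211, 233 and 282 CPM at 0 h, 192, 207 and 197 at 1 h, 271, 243 and 221 at 2 h and 189.7, 201 and 188 at 4 h. In HASX, hmg1 stood at 96.7, 94.3 and 99.1 CPM at 1 h, 66.4, 59.6 and 58.5 at 2 h and 74.3, 72.2 and 107 at 4 h, where the highest value is that of the library that stands apart. Every HASX library lay below every WT library of any time. The HASX to WT log2 FC was -1.04 ± 0.13 (adjusted p = 2.5e-07) at 1 h, -1.99 ± 0.13 (adjusted p = 8.7e-12) at 2 h and -1.19 ± 0.13 (adjusted p = 4.3e-08) at 4 h, and -1.36 (adjusted p = 1.1e-11) at 4 h without that library.

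Squalene synthase, encoded by erg9, joins farnesyl pyrophosphates and commits them to sterols. Wild-type libraries held erg9 at 435, 492 and 567 CPM at 0 h, 521, 498 and 478 at 1 h, 632, 513 and 471 at 2 h and 539, 566 and 556 at 4 h. In HASX, erg9 stood at 195, 201 and 208, then 207, 206 and 208, then 279, 248 and 222 CPM at 1 h, 2 h and 4 h. All 9 HASX libraries were lower than all 12 WT libraries. The log2 FC between genotypes was -1.31 ± 0.11 (adjusted p = 7.7e-10), -1.38 ± 0.11 (adjusted p = 3.0e-10) and -1.15 ± 0.11 (adjusted p = 8.0e-09) in time order, and -1.04 at 4 h without the library labelled HASX 4 h replicate 3.

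Squalene epoxidase, encoded by erg1, carries out the first oxygen-consuming step of the pathway. Wild-type libraries held erg1 at 199.7, 206 and 241 CPM at 0 h, 218, 221 and 233 at 1 h, 257, 230.1 and 210.1 at 2 h and 231, 257 and 229 at 4 h. In HASX, erg1 stood at 208, 225 and 205, then 193, 207 and 179.7, then 254, 231 and 207 CPM at 1 h, 2 h and 4 h. The ranges of the genotypes overlapped at 1 h and 4 h and lay just apart at 2 h. The difference was -0.08 ± 0.10 (adjusted p = 0.511) at 1 h and -0.05 ± 0.10 (adjusted p = 0.638) at 4 h, or 0.05 (adjusted p = 0.602) at 4 h without the library labelled HASX 4 h replicate 3, while at 2 h erg1 was lower in HASX, at -0.27 ± 0.10 (adjusted p = 0.0216). That call was lost without WT 2 h replicate 1, at -0.19 (adjusted p = 0.111), without HASX 2 h replicate 3, at -0.19 (adjusted p = 0.0999), and with only the 2 groups in the fit, at -0.27 (adjusted p = 0.0617).

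The product of erg7, lanosterol synthase, closes squalene epoxide into the first sterol ring system. Wild-type libraries held erg7 at 106, 115 and 113 CPM at 0 h, 119, 118 and 128 at 1 h, 116, 111 and 108 at 2 h and 109, 106 and 103 at 4 h. In HASX, erg7 stood at 94.9, 93.1 and 89.5, then 76.5, 79.7 and 79.1, then 82.4, 76.1 and 70.6 CPM at 1 h, 2 h and 4 h. Its HASX libraries all lay below the WT libraries, by a small margin. Between genotypes the log2 FC was -0.39 ± 0.08 (adjusted p = 1.2e-04), -0.51 ± 0.08 (adjusted p = 4.4e-06) and -0.47 ± 0.08 (adjusted p = 1.7e-05) in time order, -0.38 at 4 h without the library that stands apart.

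Lanosterol 14-demethylase, the cytochrome P450 encoded by erg11 and the target of azole antifungals, follows next. Wild-type libraries held erg11 at 618, 641 and 708 CPM at 0 h, 574, 584 and 574 at 1 h, 736, 678 and 633 at 2 h and 483, 535 and 499 at 4 h. In HASX, erg11 stood at 275, 318 and 291, then 286, 298 and 279, then 395, 396.97 and 349.5 CPM at 1 h, 2 h and 4 h. HASX libraries were below all WT libraries at every time, and the gap was narrowest at 4 h, when erg11 was lowest in WT and highest in HASX. Its log2 FC was -0.97 ± 0.09 (adjusted p = 3.1e-09), -1.25 ± 0.09 (adjusted p = 4.8e-11) and -0.41 ± 0.09 (adjusted p = 3.7e-04) in time order, and -0.32 at 4 h without the library labelled HASX 4 h replicate 3.

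The C-4 methylsterol oxidase gene erg25 encodes an enzyme that removes methyl groups from the sterol ring with oxygen. Wild-type libraries held erg25 at 984, 1155 and 1339.8 CPM at 0 h, 1193, 1324 and 1231 at 1 h, 1441, 1259 and 1154 at 2 h and 1274, 1394 and 1321 at 4 h. In HASX, erg25 stood at 578, 607 and 566 CPM at 1 h, 380.5, 345 and 323 at 2 h and 1001, 796 and 765 at 4 h. Levels in HASX were below those of WT at the same time throughout, but at 4 h 1 library came above the lowest WT library at 0 h. For erg25 the log2 FC was -1.10 ± 0.12 (adjusted p = 4.2e-08), -1.88 ± 0.12 (adjusted p = 7.7e-12) and -0.64 ± 0.12 (adjusted p = 7.0e-05) in time order, and -0.53 at 4 h without the library labelled HASX 4 h replicate 3.

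The sterol C-24 methyltransferase gene erg6, whose product adds the side-chain methyl that sets ergosterol apart from cholesterol, differed most. Wild-type libraries held erg6 at 844, 974 and 1169 CPM at 0 h, 1037, 1075 and 981 at 1 h, 1355, 1168 and 1025 at 2 h and 991, 1058 and 1050.2 at 4 h. In HASX, erg6 stood at 236, 265 and 300.0 CPM at 1 h, 145, 164 and 161 at 2 h and 233, 188 and 213 at 4 h. The highest HASX library was far below the lowest WT library. The log2 FC was -1.95 ± 0.13 (adjusted p = 8.3e-12), -2.91 ± 0.13 (adjusted p = 1.6e-14) and -2.29 ± 0.13 (adjusted p = 1.4e-12) in time order, which is 3.86-fold, 7.53-fold and 4.89-fold lower in HASX, and -2.26 at 4 h without the library labelled HASX 4 h replicate 3. Of all genes tested, 8.60%, 4.20% and 3.67% had a lower log2 FC than erg6 in time order.

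The sterol C-22 desaturase gene erg5 encodes another cytochrome P450, which acts near the end of the pathway. Wild-type libraries held erg5 at 1162, 1307 and 1664 CPM at 0 h, 1179.8, 1168 and 1134 at 1 h, 1597, 1450.0 and 1267 at 2 h and 1418, 1555 and 1512 at 4 h. In HASX, erg5 stood at 1502, 1694 and 1709 CPM at 1 h, 1212, 1262 and 1188 at 2 h and 1702, 1524 and 1343 at 4 h. Among the 8 chosen enzymes it was the only one higher in HASX at any time: at 1 h all 3 HASX libraries were above WT, by 0.49 ± 0.12 (adjusted p = 9.7e-04). At 2 h they lay below WT with -0.24 ± 0.12 (adjusted p = 0.0808), short of the threshold, and at 4 h the ranges overlapped with 0.03 ± 0.12 (adjusted p = 0.844), or 0.14 (adjusted p = 0.231) without the library labelled HASX 4 h replicate 3. Leaving out WT 0 h replicate 3 or WT 2 h replicate 3 brought the 2 h difference past the threshold, at -0.24 (adjusted p = 0.0365) and -0.32 (adjusted p = 0.0275).

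The transcript of the transcription factor gene sre1 went the other way from most enzymes. Wild-type libraries held sre1 at 196, 211 and 246 CPM at 0 h, 205, 193 and 196 at 1 h, 286, 243 and 230.1 at 2 h and 282, 309 and 299 at 4 h. In HASX, sre1 stood at 505, 567 and 549 CPM at 1 h, 412, 426 and 389.5 at 2 h and 560.3, 503 and 471 at 4 h. Every HASX library exceeded every WT library. The log2 FC was 1.45 ± 0.10 (adjusted p = 3.5e-11), 0.69 ± 0.10 (adjusted p = 2.8e-06) and 0.79 ± 0.10 (adjusted p = 6.0e-07) in time order, or 2.73-fold, 1.62-fold and 1.72-fold higher in HASX, and 0.88 at 4 h without the library labelled HASX 4 h replicate 3. A larger log2 FC was seen for 18.4%, 32.8% and 29.9% of all genes tested.

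The gene of its sterol-sensing partner, scp1, differed less. Wild-type libraries held scp1 at 142, 173 and 198 CPM at 0 h, 155, 159 and 140.5 at 1 h, 213, 173 and 161 at 2 h and 169, 179 and 166 at 4 h. In HASX, scp1 stood at 190.0, 216 and 208 CPM at 1 h, 208, 205 and 189 at 2 h and 236, 219.7 and 196 at 4 h. HASX was above WT without overlap at 1 h and 4 h and overlapped it at 2 h. The log2 FC was 0.43 ± 0.12 (adjusted p = 0.00232), 0.14 ± 0.12 (adjusted p = 0.283) and 0.34 ± 0.12 (adjusted p = 0.0126) in time order, and 0.44 (adjusted p = 4.9e-04) at 4 h without the library labelled HASX 4 h replicate 3.

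Reads of genes that overlap on opposite strands cannot be told apart unless the counting used strand, which the sources used here do not state. Counting by strand would not separate genes that overlap on the same strand. In the annotation erg7 overlaps SPAC4G9.22 on the opposite strand, which averaged 95.5 CPM over all libraries, close to the 99.7 CPM of erg7 itself, and whose log2 FC between genotypes was -1.08, -0.73 and 0.59 (0.75 at 4 h without the library labelled HASX 4 h replicate 3). The erg7 values are therefore uncertain. Overlapping erg6 are pac3 on the same strand, at 14.4 to 22.6 CPM in group means, and uvi31 on the opposite strand. Group means of uvi31 were 7.89 to 10.3 CPM in WT, and its HASX libraries held 24.1, 24.6 and 19.9 CPM at 1 h, 43.8, 48.3 and 45.2 at 2 h and 38.7, 34.5 and 192 at 4 h, the last in the library labelled HASX 4 h replicate 3. The erg6 level of that library, 213 CPM, is of the same order, so the erg6 values of HASX, and of that library above all, are uncertain too. Between genotypes the log2 FC of uvi31 was 1.53, 2.43 and 3.37, and 2.13 at 4 h without that library, opposite in sign to erg6. The gene pla1, which overlaps erg9 on the opposite strand, stood at 53.8 to 71.7 CPM in group means of WT and 68.6 to 89.1 CPM in those of HASX. In HASX at 1 h its mean was 84.4 CPM, beside 201 CPM for erg9. Between genotypes its log2 FC was 0.34, 0.73 and 0.22 in time order, opposite in sign to erg9. At 4 h it did not pass the test (adjusted p = 0.063), and was 0.28 without the library labelled HASX 4 h replicate 3. The erg9 values of HASX are therefore uncertain as well. Annotated long non-coding RNAs on the opposite strand also overlap hmg1, erg9, erg1, erg7, erg11, erg5, sre1 and scp1. No counts were found for them, so how far their reads enter the values of these genes is not known. A same-strand one over hmg1, SPNCRNA.1205, stood at no more than 0.54 CPM in any group mean. No annotated gene overlaps erg25.

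Change over the hours without phosphate was then followed within each strain. From 1 h to 4 h in WT 3 of 10 genes changed, against 44.1% of all genes: sre1 rose by 0.58 ± 0.10 (adjusted p = 8.3e-05), erg5 rose by 0.36 ± 0.12 (adjusted p = 0.018) and erg7 fell, at -0.20 ± 0.08 (adjusted p = 0.0443). The erg5 call was lost without WT 1 h replicate 3, at 0.35 (adjusted p = 0.0597), or without WT 4 h replicate 2, at 0.34 (adjusted p = 0.0653). For erg7 it was lost when any 1 of 10 libraries was left out, the log2 FC running from -0.22 to -0.16. In HASX 5 of 10 changed over the same time, against 44.6% of all genes: erg25 rose by 0.55 ± 0.12 (adjusted p = 9.7e-04), erg11 by 0.37 ± 0.09 (adjusted p = 0.00246) and erg9 by 0.31 ± 0.11 (adjusted p = 0.0288), while erg7 fell, at -0.28 ± 0.08 (adjusted p = 0.0077), and so did erg6, at -0.34 ± 0.13 (adjusted p = 0.0334). Without HASX 1 h replicate 2 or HASX 4 h replicate 1 the erg9 call was lost, at 0.31 (adjusted p = 0.0653) and 0.22 (adjusted p = 0.0603). The erg6 call was lost without HASX 1 h replicate 2, at -0.34 (adjusted p = 0.0636), HASX 1 h replicate 3, at -0.25 (adjusted p = 0.165), or HASX 4 h replicate 2, at -0.25 (adjusted p = 0.0908). Without the library labelled HASX 4 h replicate 3 the values were 0.65 for erg25, 0.45 for erg11, 0.41 for erg9, -0.20 for erg7 and -0.32 for erg6, all still called. In that fit hmg1 also fell, at -0.38 (adjusted p = 0.00144), where it was -0.19 with all libraries.

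The test of the difference between the strains' changes from 1 h to 4 h was passed by 4 of 10 genes, against 43.4% of all genes. The change was more upward in HASX for erg11, by 0.56 ± 0.13 (adjusted p = 0.00136), and for erg25, by 0.46 ± 0.17 (adjusted p = 0.034). It was more downward in HASX for sre1, at -0.66 ± 0.14 (adjusted p = 8.9e-04), and for erg5, at -0.47 ± 0.17 (adjusted p = 0.0319). These were, without the library labelled HASX 4 h replicate 3, 0.64, 0.56, -0.58 and -0.36, all still called. In that fit hmg1 passed too, at -0.33 (adjusted p = 0.0233). The erg11 and sre1 differences passed with any 1 library left out. For erg25 the call was lost with any 1 of 5 libraries left out (log2 values over all fits from 0.33 to 0.56), and for erg5 with any 1 of 7 (from -0.56 to -0.36).

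Within HASX 8 of the 10 genes had their lowest mean at 2 h, the exceptions being erg9 at 1 h and erg7 at 4 h. The share of all genes with their lowest HASX mean at 2 h was not counted. The steps between neighbouring times were compared after these values were seen. For these steps, and for the differences between the strains' steps, the share of all genes is given for either direction only. In HASX the median log2 FC over the 10 from 1 h to 2 h was -0.32, beside 0.02 over all genes tested. From 2 h to 4 h that median was 0.32, beside 0.06. From 1 h to 2 h in HASX 6 of 10 genes fell and 0 rose, against 31.4% of all genes changed in either direction. Those that fell were erg6 at -0.77 ± 0.13 (adjusted p = 1.1e-04), erg25 at -0.74 ± 0.12 (adjusted p = 1.1e-04), hmg1 at -0.65 ± 0.13 (adjusted p = 7.2e-04), erg5 at -0.42 ± 0.12 (adjusted p = 0.0111), sre1 at -0.40 ± 0.10 (adjusted p = 0.00506) and erg7 at -0.24 ± 0.08 (adjusted p = 0.0261). The erg7 call was lost without HASX 1 h replicate 2, at -0.23 (adjusted p = 0.0692), or HASX 2 h replicate 1, at -0.22 (adjusted p = 0.0791). In WT over that hour 1 of 10 changed, against 6.42% of all genes, sre1 rising by 0.36 ± 0.10 (adjusted p = 0.0404), a call lost when any 1 of 10 libraries was left out (log2 FC from 0.26 to 0.42). The test of the difference between these steps was passed by 5 of 10 genes, against 29.3% of all genes. Those were hmg1 at -0.96 ± 0.18 (adjusted p = 6.7e-04), erg6 at -0.96 ± 0.18 (adjusted p = 4.8e-04), erg25 at -0.78 ± 0.17 (adjusted p = 0.00208), sre1 at -0.76 ± 0.14 (adjusted p = 6.9e-04) and erg5 at -0.73 ± 0.17 (adjusted p = 0.00345), each lower in HASX relative to WT.

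From 2 h to 4 h in HASX 6 of 10 rose and 0 fell, against 38.6% of all genes changed in either direction. The rise was 1.29 ± 0.12 (adjusted p = 3.2e-07) for erg25, 0.46 ± 0.13 (adjusted p = 0.00989) for hmg1, 0.43 ± 0.13 (adjusted p = 0.0125) for erg6, 0.40 ± 0.09 (adjusted p = 0.00212) for erg11, 0.32 ± 0.10 (adjusted p = 0.0189) for sre1 and 0.32 ± 0.12 (adjusted p = 0.042) for erg5. Without the library labelled HASX 4 h replicate 3 the rise was 1.38 for erg25, 0.27 (adjusted p = 0.019) for hmg1, 0.44 for erg6, 0.48 for erg11, 0.40 for sre1 and 0.42 for erg5, all still called. In the same fit erg1 rose by 0.35 (adjusted p = 0.0037) and erg9 by 0.37 (adjusted p = 0.00367). The erg6 call was lost without HASX 2 h replicate 1, at 0.37 (adjusted p = 0.056), and the erg5 call when any 1 of 11 libraries was left out. Among the 10 genes the rise of erg25 was the largest. In WT 2 of 10 fell over that time, against 27.8% of all genes changed: erg11 at -0.43 ± 0.09 (adjusted p = 8.7e-04) and hmg1 at -0.34 ± 0.13 (adjusted p = 0.0484), the latter call lost when any 1 of 12 libraries was left out. The difference between the strains' steps passed for 4 of 10 genes, against 30.5% of all genes: erg25 at 1.24 ± 0.17 (adjusted p = 1.2e-05), erg11 at 0.83 ± 0.13 (adjusted p = 4.2e-05), hmg1 at 0.81 ± 0.18 (adjusted p = 0.00194) and erg6 at 0.62 ± 0.18 (adjusted p = 0.0106), each more upward in HASX.

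The authors' deposited tables compare HASX with WT at 0 h, a contrast that mixes strain and starvation. In the authors' deposited table for 1 h, sre1 had a log2 fold change of 1.37, hmg1 of -1.27, erg6 of -1.84 and erg1 of 0.04. For 2 h the authors' deposited table gives 0.95 for sre1, -1.94 for hmg1, -2.62 for erg6 and -0.12 for erg1.

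A further 40 genes of sterol synthesis, its control and its partner pathways were counted from lists, and all 40 passed the filter. At 1 h, 2 h and 4 h 14, 11 and 12 of the 40 were higher in HASX, beside 36.1%, 37.2% and 38.2% of all genes, and 19, 24 and 24 were lower, beside 37.7%, 39.2% and 37.2% of all genes. Their median log2 FC was -0.26, -0.59 and -0.42, beside -0.01, -0.01 and 0.05 over all genes. At 4 h the numbers were 12 higher and 20 lower without the library labelled HASX 4 h replicate 3.

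In the mevalonate branch, upstream of squalene, 7 of 8 other genes were lower in HASX at each time (37.7%, 39.2% and 37.2% of all genes). The remaining one, erg10, named after its values were seen and encoding acetoacetyl-CoA thiolase at the head of the branch, was higher at 1 h by 0.47 ± 0.11 (adjusted p = 4.6e-04). The largest differences were those of spo9 and fps1, which encode prenyl diphosphate synthases that act around farnesyl pyrophosphate. For spo9 WT libraries held 43.5, 43.5 and 39.9 CPM at 1 h, 44.5, 41.1 and 33.9 at 2 h and 31.6, 32.7 and 28.8 at 4 h, and HASX libraries 3.76, 4.69 and 4.11, then 4.55, 3.92 and 4.91, then 6.34, 4.88 and 6.55 CPM. The genotypes did not overlap at any time. Its log2 FC was -3.34 ± 0.16, -3.16 ± 0.16 and -2.38 ± 0.15, with an adjusted p of at most 8.7e-12. For fps1 it was -2.15 ± 0.13, -2.92 ± 0.13 and -2.37 ± 0.13, with an adjusted p of at most 1.1e-12. The isopentenyl diphosphate isomerase gene idi1 was lower, with log2 FC of -1.49 ± 0.12, -1.49 ± 0.12 and -1.28 ± 0.12, as were the phosphomevalonate kinase gene erg8, at -0.95 ± 0.11 at 1 h and -1.44 ± 0.11 at 4 h, and the mevalonate diphosphate decarboxylase gene mvd1, at -1.43 ± 0.17 at 2 h. Leaving out the library labelled HASX 4 h replicate 3 gave 4 h values of -2.42 for spo9, -2.20 for fps1, -1.17 for idi1 and -1.35 for erg8. In that fit 1 gene of the list was higher in place of 0.

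Between lanosterol and ergosterol 4, 7 and 6 of 9 other genes were lower (37.7%, 39.2% and 37.2% of all genes) and 2 were higher at each time (36.1%, 37.2% and 38.2%); 5 were lower at 4 h without the library that stands apart. The sterol C-24(28) reductase gene erg4, which acts last, was lower, with log2 FC of -0.91 ± 0.12, -1.83 ± 0.12 and -1.32 ± 0.12, and so was erg28, whose product tethers the C-4 demethylation enzymes, at -0.84 ± 0.12, -1.64 ± 0.13 and -1.28 ± 0.12. For the pair of C-5 desaturase genes values are given at different times, since only the 4 largest called changes of a comparison are named. At 2 h erg31 was lower, at -1.36 ± 0.13, and erg32 was higher by 1.15 ± 0.12 at 1 h and 1.23 ± 0.12 at 4 h. Also higher was dap1, a heme protein that aids the P450 enzymes, by 0.89 ± 0.18, 1.34 ± 0.18 and 1.21 ± 0.18. With that library left out the 4 h values were -1.22 for erg4, -1.15 for erg28, 1.33 for erg32 and 1.34 for dap1.

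Of the genes that process or control Sre1, 5, 4 and 5 of 11 were higher in HASX and 4, 5 and 5 lower, near the shares of genes at large (36.1%, 37.2% and 38.2% higher, 37.7%, 39.2% and 37.2% lower). Among subunits of the Dsc ubiquitin ligase, dsc5 was higher by 2.48 ± 0.12, 2.12 ± 0.11 and 1.60 ± 0.11 and dsc3 by 1.24 ± 0.13, 1.81 ± 0.13 and 0.80 ± 0.12. For dsc2 WT libraries held 136, 138 and 138 CPM at 1 h, 156, 132 and 128 at 2 h and 134, 150.3 and 131 at 4 h, and HASX libraries 29.6, 31.7 and 39.1, then 24.1, 23.4 and 22.2, then 47.2, 39.9 and 129 CPM. The last of these values, that of the library labelled HASX 4 h replicate 3, was near the WT level. Its log2 FC was -2.04 ± 0.31, -2.58 ± 0.32 and -0.93 ± 0.30, the last with an adjusted p of 0.00959 and -1.63 (adjusted p = 6.4e-11) without that library. Without it the lower count at 4 h was 3 of 11 in place of 5. At 4 h sre2, a gene for another SREBP, was higher by 0.90 ± 0.11. In the same fit without that library the 4 h values were 1.71 for dsc5, 0.94 for dsc3 and 0.99 for sre2. All calls named in these lists have an adjusted p under 0.05 in edgeR's quasi-likelihood test.

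**Figure D3:**
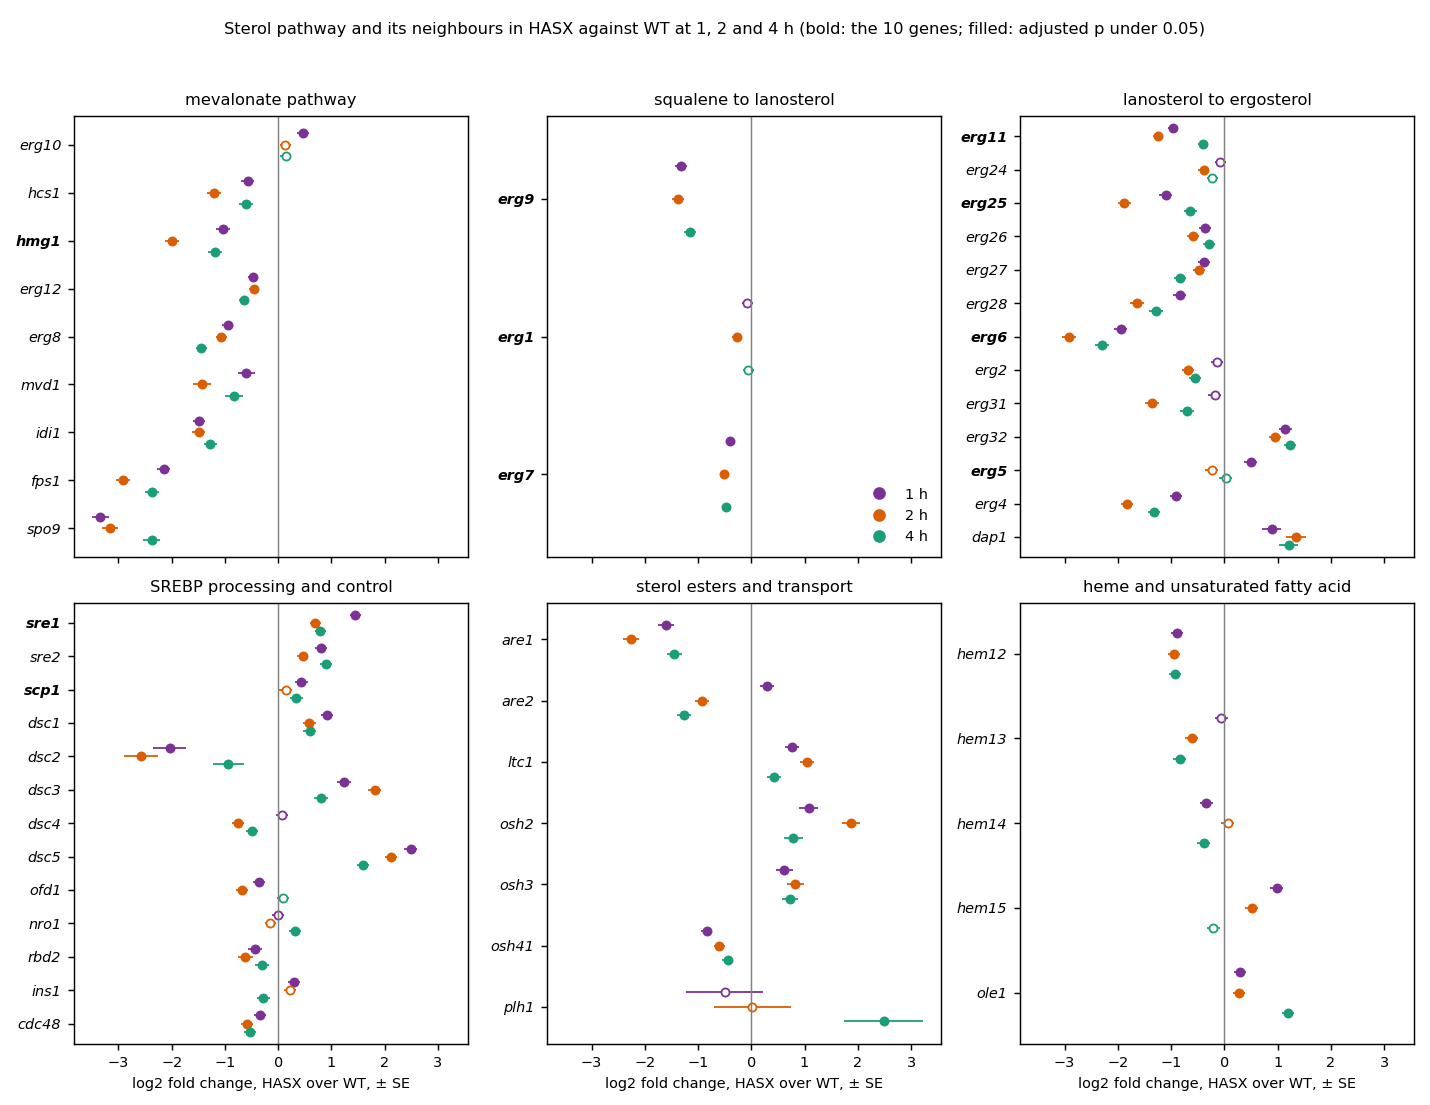
Log2 fold change of HASX over WT (horizontal axis) at 1 h, 2 h and 4 h for all genes of 6 pathway lists, 1 panel per list, with SE bars and the 10 chosen genes in bold. Points of the mevalonate panel lie mostly below 0, with spo9 and fps1 below -2 at each time, while those of the SREBP control panel lie on both sides, from dsc5 at 2.48 to dsc2 at -2.58.

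In WT alone, 4 h without phosphate against 0 h, 14 of the 40 were higher and 5 lower, beside 26.3% and 25.0% of all genes. The same test gave 9 higher and 3 lower at 2 h, beside 11.0% and 6.85% of all genes, and 0 higher and 2 lower at 1 h, beside 4.20% and 4.94%. Of the SREBP control genes 4 of 11 were higher at 4 h and 0 lower, against 26.3% and 25.0% of all genes. They were dsc5, higher by 0.83 ± 0.11 (adjusted p = 3.0e-06), ins1, an Insig-like gene, by 0.74 ± 0.12 (adjusted p = 2.3e-05), dsc4 by 0.60 ± 0.11 (adjusted p = 1.5e-04) and dsc1 by 0.40 ± 0.12 (adjusted p = 0.00766). In the mevalonate branch 1 of 8 genes was higher and 3 were lower. The decarboxylase gene mvd1 rose by 0.41 ± 0.16 (adjusted p = 0.0415), a call lost when any 1 of 11 libraries was left out. The gene spo9 fell, at -0.49 ± 0.14 (adjusted p = 0.00553), as did idi1, at -0.39 ± 0.12 (adjusted p = 0.00776), and the mevalonate kinase gene erg12, at -0.28 ± 0.10 (adjusted p = 0.0186). Between lanosterol and ergosterol 5 of 9 were higher and 1 lower. The C-14 reductase gene erg24 rose by 0.51 ± 0.11 (adjusted p = 4.2e-04), erg4 by 0.35 ± 0.12 (adjusted p = 0.0153) and erg28 by 0.33 ± 0.12 (adjusted p = 0.0297), and dap1 fell, at -0.98 ± 0.18 (adjusted p = 1.5e-04). With 1 library left out the counts over the 40 ran from 7 to 15 higher and 4 to 11 lower at 4 h, from 0 to 14 higher and 0 to 6 lower at 2 h, and from 0 to 7 higher and 1 to 8 lower at 1 h. Leaving out the library labelled HASX 4 h replicate 3 gave 15 and 11, 10 and 6, and 2 and 8. In that fit 3778, 1764 and 1063 of 6252 genes in all were called at 4 h, 2 h and 1 h.

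Across the 21 libraries hmg1, erg9, erg7, erg11, erg25 and erg6 correlated with each other at r between 0.77 and 0.98 in log2 CPM, sre1 correlated with these 6 at -0.84 to -0.65 and with scp1 at 0.84, and erg5 correlated with the 6 at -0.14 to 0.14. The closest patterns elsewhere to that of sre1 in log2 CPM, among 4563 protein-coding genes with a mean of at least 10 CPM, were ksp1 at r = 0.996, esc1 at 0.989, SPBC1E8.02 at 0.988, lkh1 at 0.988 and SPBC713.07c at 0.987. Closest to the mean of the 8 enzymes were mpg1 at 0.995, aah3 at 0.995, sec24 at 0.994, rcd1 at 0.993 and otg3 at 0.992. All values are Pearson coefficients over 21 libraries that fall into the 2 genotypes.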

How the data were processed

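Per the labels, a stranded TruSeq kit with polyA selection and paired-end reads gave the 21 libraries. The submitters' processing notes name build ASM294v2, HTSeq 0.10.0, HISAT2 2.1.0, DESeq2 and SAMtools; their roles and settings, counting strand included, are not given in the sources used here. The authors deposited raw read counts per gene, with WT and HASX in separate tables, and the submitted numbers were analysed as they stand. The authors also deposited DESeq2 tables against WT at 0 h, whose fold changes are log2 values and whose adjusted p-values are given per the file headers. In the deposited table labelled HASX 4 h the log2 fold changes did not follow from the group averages in the same table (SD of the difference 0.394 over 5161 genes with both averages above 50, against at most 0.00263 in each of the other 5 tables), so its fold changes are not used.

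Genes were named from the ASM294v3 annotation, a later build, so no coordinates or sequences are given; of 6988 identifiers, 6836 were found as locus tags, 12 as synonyms and 140 in neither way. In R 4.3.3 with edgeR 4.0.16, low counts were filtered with filterByExpr (6234 genes kept, 754 removed) and libraries scaled by TMM, which gives the CPM. All 21 libraries entered 1 robust quasi-likelihood fit with a mean for each group (14 residual degrees of freedom, common biological coefficient of variation 0.212). A change counted as called at a Benjamini-Hochberg adjusted p under 0.05, and SE is the log2 fold change divided by the root of the test's F. The procedure was run on simulated counts with changes placed in WT at 1 h alone, and only WT at 1 h against 0 h was tested. That simulation does not cover the comparisons between genotypes. Alternatives were size factors of DESeq2, DESeq2 1.42.0 itself, no filter, a replicate block, only the groups compared, and each library left out in turn.

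The genes and lists were chosen with earlier results of these data known. All 10 genes are named. From each list of other genes up to 4 with the largest change among those called are named per comparison, and the 5 genes most like sre1 and like the mean of the enzymes.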

Additional observations from a re-analysis of the deposited data

Results flagged for a closer look

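The changes of 6 genes over time differed between HASX and WT by a test of the difference itself (edgeR's quasi-likelihood interaction, adjusted over 6234 genes). It was passed by 4 of 10 genes from 1 h to 4 h, 5 from 1 h to 2 h and 4 from 2 h to 4 h. Of all genes, 43.4%, 29.3% and 30.5% passed it in that order. From 1 h to 4 h the log2 difference, HASX minus WT, was 0.56 for erg11, 0.46 for erg25, -0.66 for sre1 and -0.47 for erg5. Of these, the erg25 and erg5 calls were lost in several fits that left out a single library, while those of erg11 and sre1 were not. From 1 h to 2 h it was -0.96 for hmg1, -0.96 for erg6, -0.78 for erg25, -0.76 for sre1 and -0.73 for erg5. From 2 h to 4 h it was 1.24 for erg25, 0.83 for erg11, 0.81 for hmg1 and 0.62 for erg6. The steps through 2 h were compared after the values were seen. Without the library labelled HASX 4 h replicate 3 the difference from 1 h to 4 h was 0.64 for erg11, 0.56 for erg25, -0.58 for sre1 and -0.36 for erg5, and that from 2 h to 4 h was 1.31 for erg25, 0.89 for erg11, 0.60 for hmg1 and 0.62 for erg6.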

How the results depend on the processing

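Over all alternatives the counts of the 10 genes higher or lower in HASX than in WT stayed at 3 and 6 at 1 h and at 2 and 6 at 4 h, and at 2 h 1 was higher in each and 6 to 8 were lower. Counts over time moved more. With size factors of DESeq2, 1 gene was lower in WT at 4 h than at 0 h (2 in the main analysis), 0 were lower in WT at 4 h than at 1 h (1), 1 was lower in HASX at 4 h than at 1 h (2) and 1 had a more downward change in HASX from 1 h to 4 h (2). DESeq2 also gave 1 gene lower in HASX at 4 h than at 1 h. With only the groups compared in the fit, 4 were higher (2) and 2 lower (1) in WT at 4 h than at 1 h, and 1 was higher in HASX at 4 h than at 1 h (3). Leaving out 1 library at a time gave 0 to 3 lower in WT at 1 h and 0 to 2 higher at 2 h against 0 h; at 4 h 1 to 3 were higher and 1 to 2 lower. It gave 6 to 8 lower in HASX at 2 h, 1 to 2 higher and 0 to 2 lower in WT from 1 h to 4 h, 2 to 3 higher and 1 to 3 lower in HASX over that time, and 1 to 2 more upward and 1 to 3 more downward differences. The causes were not tested. Replicate numbers did not pair the samples: deviations of same-numbered libraries correlated at -0.66 to 0.42, with a median of 0.00, and 10 of 21 libraries correlated best with their own number. With the replicate block 0 of the 10 genes were lower in WT at 4 h than at 1 h (1 without it), and 498 genes in all were called in WT at 1 h against 0 h (570 without it). Among all genes that count ran from 312 to 1063 over the alternatives, and at 2 h from 254 to 2366 around 1114. The plh1 change in HASX from 1 h to 4 h reversed to -0.16 (adjusted p = 0.554) without the library labelled HASX 4 h replicate 3, and was up to 2.79 with another library left out.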

Other observations

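Among genes of sterol esters and transport 4, 3 and 4 of 7 were higher in HASX than in WT at 1 h, 2 h and 4 h and 2, 3 and 3 were lower (36.1%, 37.2% and 38.2% of all genes were higher, 37.7%, 39.2% and 37.2% lower). At 4 h 3 were higher and 3 lower without the library labelled HASX 4 h replicate 3. The sterol O-acyltransferase gene are1, whose product stores sterols as esters, stood at 56.7, 54.8 and 49.7 CPM in WT at 1 h, 69.7, 57.2 and 53.0 at 2 h and 62.8, 71.0 and 63.3 at 4 h, and at 17.2, 18.4 and 17.5, then 14.5, 11.1 and 12.0, then 29.4, 23.5 and 19.6 CPM in HASX. No HASX library reached the WT level, and the log2 fold change was -1.60 ± 0.15, -2.26 ± 0.15 and -1.44 ± 0.15, each with an adjusted p in edgeR's quasi-likelihood test of at most 1.4e-08. The other acyltransferase gene, are2, was lower, at -0.93 ± 0.13 (adjusted p = 1.4e-06) at 2 h and -1.26 ± 0.13 (adjusted p = 2.5e-08) at 4 h. Of the oxysterol-binding protein homologues, osh2 was higher by 1.07 ± 0.17, 1.87 ± 0.18 and 0.79 ± 0.17, with an adjusted p of at most 3.7e-04, and osh41 was lower, at -0.84 ± 0.10 (adjusted p = 2.1e-07) at 1 h. The sterol transfer gene ltc1 was higher by 0.76 ± 0.13 (adjusted p = 2.8e-05) at 1 h and 1.04 ± 0.13 (adjusted p = 3.6e-07) at 2 h. For plh1, a phospholipid diacylglycerol acyltransferase gene, the 4 h difference of 2.48 ± 0.75 (adjusted p = 0.0075) rested on the library labelled HASX 4 h replicate 3, which held 379 CPM where its partners held 25.2 and 25.7 CPM; without it the log2 fold change was 0.02 (adjusted p = 0.935).

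Heme and unsaturated fatty acids are made by other oxygen-consuming pathways. The fatty acid desaturase gene ole1 stood at 1668, 1779 and 1859 CPM in WT at 4 h and at 4767, 3858 and 3520.1 CPM in HASX, and was higher by 1.19 ± 0.12 (adjusted p = 7.9e-09). At 1 h and 2 h its log2 fold change was 0.29 ± 0.12 (adjusted p = 0.0269) and 0.27 ± 0.12 (adjusted p = 0.0374), with log2 fold changes of 0.24 to 0.39 and 0.21 to 0.35 when 1 library was left out, and the calls were lost in some of these fits. The uroporphyrinogen decarboxylase gene hem12 was lower, with log2 fold changes of -0.89 ± 0.11, -0.95 ± 0.11 and -0.92 ± 0.11, with an adjusted p of at most 1.7e-07, and the coproporphyrinogen oxidase gene hem13 was lower, at -0.62 ± 0.12 (adjusted p = 1.0e-04) at 2 h and -0.84 ± 0.12 (adjusted p = 3.0e-06) at 4 h. The ferrochelatase gene hem15 was higher by 0.98 ± 0.12 (adjusted p = 3.1e-07) at 1 h and 0.52 ± 0.12 (adjusted p = 6.9e-04) at 2 h. Of the 5 genes of this list 2, 2 and 1 were higher in HASX and 2, 2 and 3 lower in time order, beside the same shares of all genes. Leaving out the library labelled HASX 4 h replicate 3, the 4 h log2 fold changes were -1.27 for are1, -1.20 for are2, 0.95 for osh2, 1.32 for ole1, -0.81 for hem12 and -0.72 for hem13, each still called. In that fit 2 genes of the heme and fatty acid list were lower in place of 3.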
